A study of Sus scrofa with 24 samples.

Results

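The insulin-like growth factor (IGF) and insulin signalling components were examined in 24 RNA-sequencing libraries of pig hippocampus. The 10 genes chosen were the ligands IGF1 and IGF2, the receptors IGF1R, IGF2R and INSR, the adaptors IRS1 and IRS2, and the binding proteins IGFBP2, IGFBP4 and IGFBP5. They were found by matching the gene identifiers of the count files to pig gene symbols. Of the 10, 9 were matched and all 9 passed the filter on low counts, among 16326 tested genes of 38882 listed. IRS2 was not analysed here.

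The libraries came from 14-day-old piglets of a PIC Camborough dam and PIC 359 sire cross, 6 in each of 4 groups. Small for gestational age (SGA) and appropriate for gestational age (AGA) piglets, which differ by birth weight, were fed a control formula (CON) or a hydrolyzed fat formula (HF). The fat of CON was triglyceride oil, and part of it was replaced in HF by free fatty acids, monoacylglycerol palmitate and lecithin, with added cholesterol. All piglets were full term, took colostrum, received iron and an antibiotic on the farm, and were caged singly from the age at which formula feeding began. Each SGA piglet had a same-sex AGA littermate on the same diet, which gave 12 litters, 6 on each diet, 6 of males and 6 of females. Litters 1 to 6 formed cohort 1 (replicates 1 to 3 of each group) and litters 7 to 12 formed cohort 2 (replicates 4 to 6). Cohort and sex overlapped in part, with 4 male litters in cohort 1 and 2 in cohort 2.

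IGF1 and IGF2 are secreted growth factors that signal mainly through the receptor tyrosine kinase IGF1R, and IGF2 and insulin also act through INSR. The activated receptors phosphorylate adaptor proteins such as IRS1, which recruit phosphatidylinositol 3-kinase and start the AKT cascade of growth and metabolism. IGF2R, the mannose 6-phosphate receptor, binds IGF2 and carries it to lysosomes, and the IGF binding proteins hold IGFs outside the cell and modulate their access to receptors. In the brain, IGF1 supports neuronal growth and myelination, while IGF2 is known as a product of the meninges, choroid plexus and vasculature.

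The depth per library was 6017336 to 9284355 counts over the listed genes, with a median of 7346072. Levels are given as CPM, counts scaled to the TMM-normalized size of each library. A count of 3, the upper limit that a count of 0 allows, corresponded to 0.323 to 0.499 CPM, for counting error alone. The hippocampal label was checked against marker genes. The excitatory neuron genes SLC17A7, NEUROD2 and PROX1 had medians of 3429, 491.6 and 50.5 CPM, whereas CALB1 had 0.567 CPM and WFS1 3.78 CPM. SGA HF replicate 4 stood apart in the pituitary hormone GH1, at 305.8 CPM against a median of 0 over the 24 libraries. It was the lowest library of its group for INSR and IRS1, and lay inside its group's range for the other 7 members. These libraries are bulk tissue, so fewer cells of a type and less RNA per cell cannot be told apart.

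The members differed widely in level. Levels were compared per kb of the gene model in the deposited files, as median CPM per kb over the 24 libraries. IGF2 led with 31.2, followed by IGFBP4 with 25.0 and IGFBP2 with 21.7. Their ranges overlapped, and IGF2 exceeded IGFBP4 in 14 of 24 libraries, while IGFBP4 exceeded IGFBP2 in 15. IGFBP5, with 2.89 CPM per kb, lay below IGFBP2 in 24 of 24 libraries with no overlap. IRS1 (0.882), INSR (0.845) and IGF2R (0.639) followed with overlapping ranges, and IRS1 exceeded INSR in 14 libraries and INSR exceeded IGF2R in 18. IGF1R and IGF1 were lowest, with 0.249 and 0.245 CPM per kb, and IGF1R exceeded IGF1 in 12 of 24 libraries. The mRNA of the ligand IGF2 was far more abundant per kb than that of IGF1, the other ligand, and IRS1, INSR and IGF2R lay between them. The gene models behind the top ranks are short, at 508 bases for IGF2, 780 for IGFBP4 and 1091 for IGFBP2, so this order depends on how complete those models are. The models of IGF1 and IGF1R have 3840 and 4233 bases. Before division by length the medians over 24 libraries were 15.9 CPM for IGF2 and 0.942 CPM for IGF1. The libraries were made from poly(A) RNA. The study reported a reduced average RNA quality number for its samples, which it ascribed to pre-spliced RNA. The part of RNA integrity and model length in this order was not tested.

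**Figure D1:**
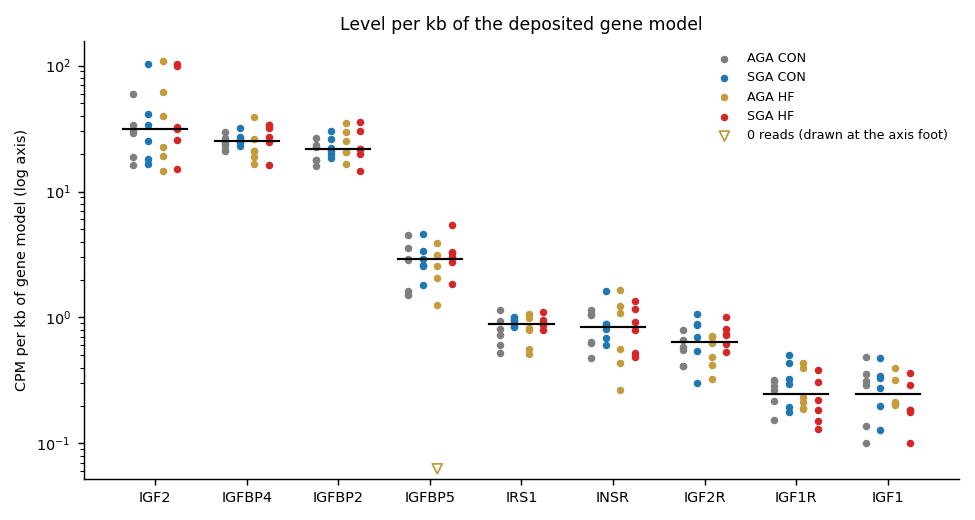
Level of each member in CPM per kb of the deposited gene model (log axis), 1 point per library coloured by group, with a black bar at the median of 24 libraries. IGF2, IGFBP4 and IGFBP2 form the top with overlapping ranges, IGF1R and IGF1 share the lowest place, and the open triangle at the axis foot is the AGA HF library with 0 IGFBP5 reads.

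Counting error set how well each member could be read. IGF1 had 3 to 16 reads and IGF1R 4 to 17 reads per library. Their coefficients of variation (CV) over 24 libraries were 41.6% and 37.5%, close to the 36.7% and 34.3% that counting alone would give. For these genes little of the spread between piglets lay above counting error. The CV of IGF2, by contrast, was 73.9% where counting gave 8.00%, a ratio of 9.23. IGFBP2 and IGFBP4 had CVs of 24.9% and 21.8% against 7.34% and 8.23% from counting.

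No member passed the threshold for size, diet or their interaction in the fitted model. Each gene was fitted with edgeR on the 4 groups, sex and 5 surrogate variables (estimates of unlabelled sources of variation). Genes were called at an FDR p below 0.4. The study used this threshold to choose genes for its heat map, and described it as wider than usual. For size 0 of 9 members were called, beside 0.478% of all tested genes. For diet 0 of 9 were called beside 0.159%, and for the size by diet interaction 0 of 9 beside 0.0490%. In the pairwise comparisons 0 of 9 were also called, where the share of all genes was 0.129% for SGA CON against AGA CON, 0.288% for SGA HF against AGA HF, 0.0674% for AGA HF against AGA CON and 0.0919% for SGA HF against SGA CON. DESeq2 and limma voom likewise called 0 members in all 7 contrasts. At an unadjusted p below 0.05, edgeR counted 0 members for size, 1 (INSR) for diet and 0 for the interaction, where the shares of all genes were 10.6%, 7.09% and 4.01%. The median log2 fold change of the 9 members was 0.11 for size, -0.02 for diet and -0.07 for the interaction, beside -0.00, 0.00 and 0.00 over all genes.

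**Figure D2:**
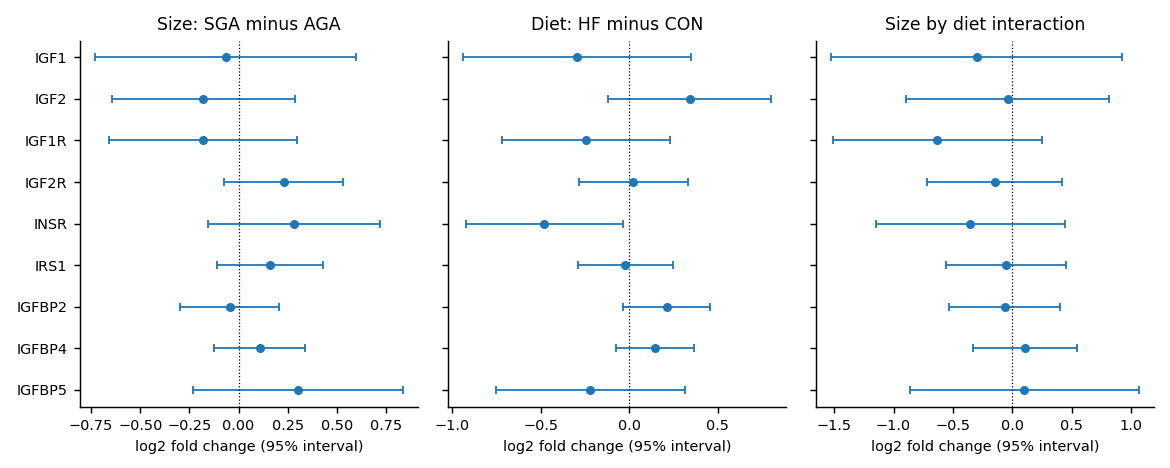
Log2 fold change of each member in the edgeR fit for size, diet and their interaction, with 95% intervals (points and bars, 24 libraries). All intervals include 0 except that of INSR for diet, which reaches from -0.93 to -0.04.

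**Figure D3:**
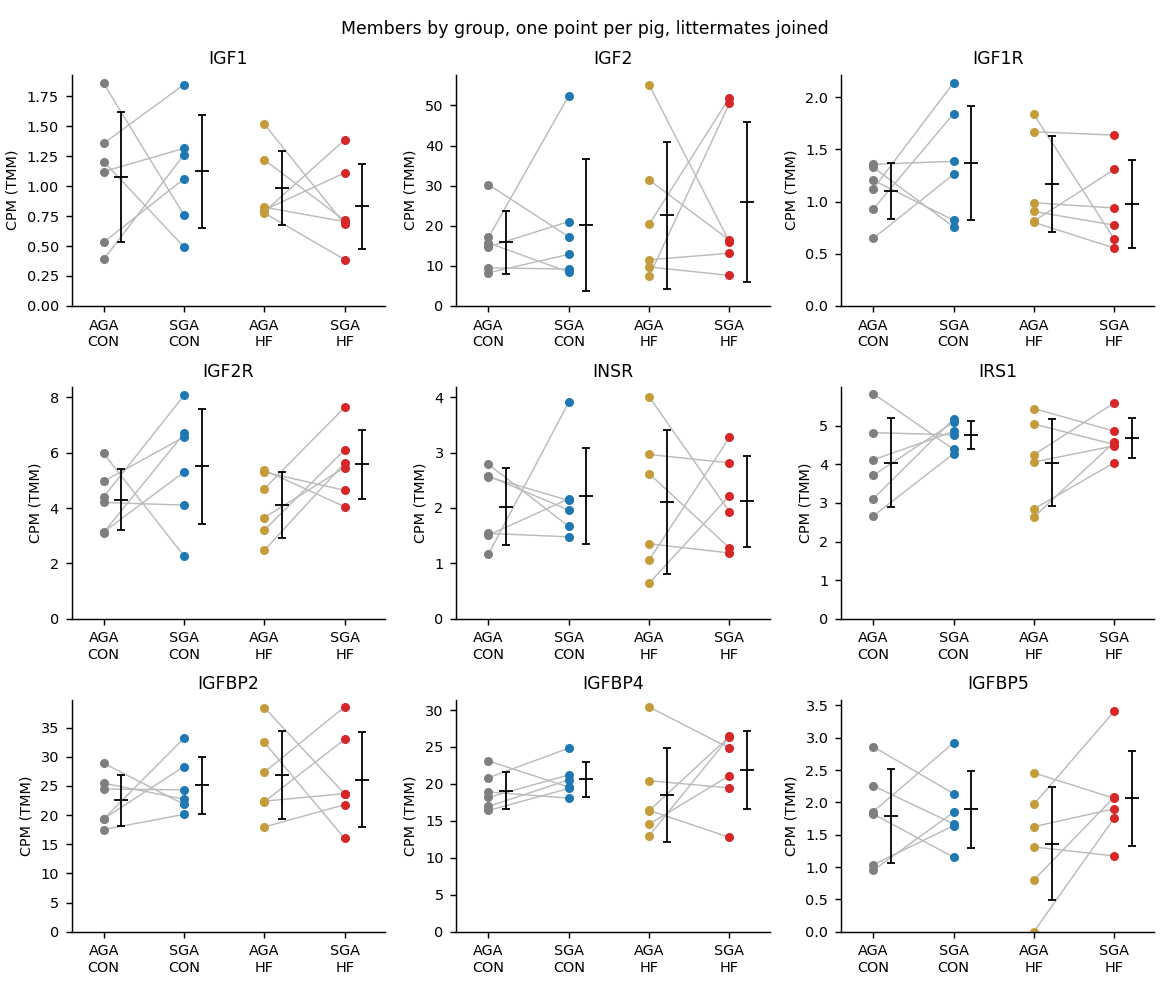
CPM of the 9 members by group, 1 point per piglet with littermates joined by lines, and the mean ± SD (n = 6) beside each group. The 4 groups overlap for every member, IGF2 has 4 libraries above 50 CPM spread over 3 groups, and the SGA points of IRS1 lie close together.

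Among the ligands, IGF1 was read at few counts and its groups overlapped. This gene, on chromosome 5 from 85700439 to 85773714 (Sscrofa10.2, plus strand, 6 exon intervals), had a lowest, median and highest level of 0.388, 1.16 and 1.86 CPM in AGA CON. In AGA HF the values were 0.776, 0.812 and 1.52 CPM, in SGA CON 0.493, 1.16 and 1.85 CPM, and in SGA HF 0.387, 0.708 and 1.39 CPM. The 4 groups overlapped throughout. The edgeR log2 fold change was -0.07 for size, with a 95% interval from -0.73 to 0.60 and an adjusted p of 0.988, and -0.29 for diet, from -0.94 to 0.35 with an adjusted p of 0.914. SGA exceeded AGA in 6 of 12 litters. The 3 genes most alike over the 24 libraries were RAB29, DOCK8 and TBATA, with Pearson r of 0.557, 0.555 and 0.545 of log2 CPM among 9386 genes compared.

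IGF2 was the most variable member, and its 4 groups overlapped. The gene model lies on an unplaced scaffold, from 542 to 1049 on the minus strand, as 1 exon interval. In AGA CON the lowest, median and highest levels were 8.29, 15.2 and 30.3 CPM, and in AGA HF 7.36, 15.9 and 55.1 CPM. In SGA CON they were 8.43, 15.1 and 52.4 CPM, and in SGA HF 7.62, 16.2 and 51.95 CPM. The group medians were alike while the upper ends reached far above them, and the CV of IGF2 was larger than that of 99.4% of the 2265 genes of like level, whose median CV was 15.1%.

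The upper end consisted of a few piglets whose littermates had far lower levels. AGA HF replicate 6 had 55.1 CPM and its SGA littermate 15.99 CPM. SGA CON replicate 6 had 52.4 CPM and its littermate 17.1 CPM. SGA HF replicates 1 and 2 had 51.95 and 50.5 CPM against 20.3 and 7.36 CPM in their littermates. The ratio to the littermate was thus between 2.56 and 6.86 in these 4 litters, with the SGA piglet higher in 3 of them and the AGA piglet in 1. Over 12 litters the correlation between littermates was 0.08 (Spearman 0.29), beside a median of 0.12 over all genes.

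In the edgeR fit IGF2 had a log2 fold change of -0.18 ± 0.24 (SE) for size (adjusted p = 0.933) and 0.34 ± 0.24 for diet (adjusted p = 0.839). Within litters SGA was higher in 6 of 12, with a mean difference of 0.19 ± 0.37 (SE) on the log2 scale and an exact sign-flip p of 0.624. Between the 6 HF and 6 CON litters the difference was 0.29 ± 0.41 (exact permutation p = 0.487). Without litter 5 the diet value in edgeR was 0.54 with an adjusted p of 0.295, and IGFBP2 was called with it (0.31, adjusted p = 0.350), in a fit that called 757 genes for diet instead of 26. The exact tests over litters use log2 CPM with a prior count of 2, a scale on which changes of low genes are understated.

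IGF2 moved with genes of the leptomeninges, the membranes that cover the brain surface. Its 3 most alike genes were SLC13A4 (r = 0.926), TP53I11 (r = 0.833) and SLC6A13 (r = 0.814). SLC13A4, a sulfate transporter, and SLC6A13, a GABA and taurine transporter, are both known from meningeal cells. SLC6A13 was also on the list of meningeal fibroblast markers, together with COL1A1, COL1A2, COL3A1, DCN, LUM, OGN, FMOD, PRG4 and TNMD. All 10 of these correlated positively with IGF2, from 0.448 for COL1A1 to 0.821 for TNMD, and 9 of 10 had an r above 0.5. PRG4 was at 0 in 12 libraries and TNMD in 2, while the other 8 were detected in all 24.

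The summed CPM of the 10 markers correlated with IGF2 with r = 0.864 (Spearman 0.797) over 24 libraries, which differ in depth and come in littermate pairs. Without the 2 libraries farthest from the median sum r was 0.852, and among the 20 libraries left after removing the 4 highest in IGF2 it was 0.786. Taken as deviations from the group means, r was 0.881. The summed level had a lowest, median and highest value of 192.7, 206.6 and 298.7 CPM in AGA CON and of 175.4, 230.8 and 331.8 CPM in AGA HF. In SGA CON the values were 186.1, 208.2 and 290.0 CPM, and in SGA HF 185.9, 222.8 and 303.2 CPM. The sum therefore overlapped among all groups, as IGF2 did. The summed markers of mural cells, which wrap blood vessels, correlated with IGF2 at r = 0.531, and those of neurons at -0.318. Of the 5 mural markers, TAGLN (0.555), RGS5 (0.544) and ACTA2 (0.528) were above 0.5, while ANPEP had 0.387 and PDGFRB -0.000887. The part of meningeal tissue in the IGF2 values was not tested.

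**Figure D4:**
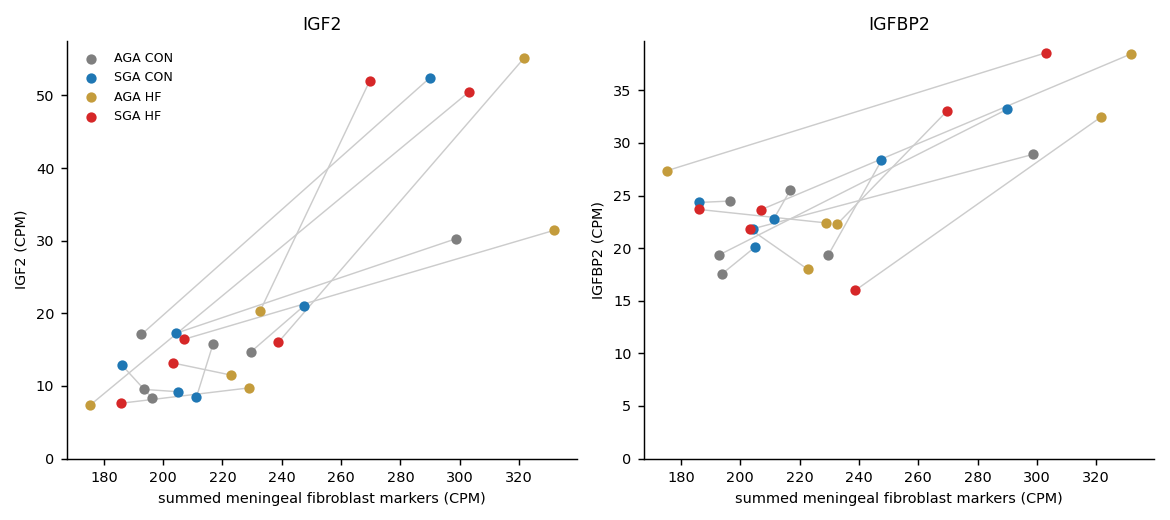
CPM of IGF2 (left) and IGFBP2 (right) against the summed CPM of 10 meningeal fibroblast markers, 1 point per library coloured by group, with littermates joined. The 7 libraries with the highest IGF2 are also the 7 with the highest marker sum and the 7 with the highest IGFBP2.

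Among the receptors, IGF1R was near the detection limit. It spans 153523944 to 153853776 on the minus strand of chromosome 1 with 21 exon intervals. Its median was 1.16 CPM in AGA CON, 0.947 in AGA HF, 1.32 in SGA CON and 0.856 in SGA HF, and its range over all libraries was 0.555 to 2.14 CPM. The largest fitted value of any member in the interaction was that of IGF1R, -0.63 with a 95% interval from -1.51 to 0.25 (edgeR, adjusted p = 0.842). SGA was higher in 4 of 6 CON litters and in 1 of 6 HF litters, and the difference between the diets in the SGA minus AGA value was -0.43 ± 0.36 (SE, exact permutation p = 0.262). Its most alike genes were RWDD2A, EGLN1 and HIVEP1, with r of 0.641, 0.621 and 0.617.

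IGF2R, which clears IGF2, had higher medians in SGA than in AGA but did not pass the test for size. The gene lies on chromosome 1 from 9168321 to 9271328 (minus strand, 48 exon intervals). Its lowest, median and highest levels were 3.12, 4.30 and 5.97 CPM in AGA CON, 2.47, 4.18 and 5.37 CPM in AGA HF, 2.27, 5.94 and 8.07 CPM in SGA CON, and 4.05, 5.55 and 7.64 CPM in SGA HF. The SGA medians were above the AGA medians on both diets, with overlap. SGA exceeded AGA in 8 of 12 litters, with a mean log2 difference of 0.36 ± 0.20 (SE, exact sign-flip p = 0.109, FDR p = 0.515). In cohort 1 the difference was 0.60 and SGA was higher in 5 of 6 litters, and in cohort 2 it was 0.11 with 3 of 6. The difference between the cohorts had an exact permutation p of 0.258. In edgeR the size effect was 0.23 ± 0.16 (SE, adjusted p = 0.838).

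IGF2R was lower in the SGA piglet in 4 litters, and by most in litter 8, with 5.97 CPM in the AGA piglet and 2.27 CPM in the SGA piglet. Without litter 8 the difference within litters was 0.51 ± 0.15 (exact sign-flip p = 0.0137, FDR p = 0.246), past the threshold. Leaving out the litter most opposed to a difference lowers the p by that choice, so no conclusion is drawn from it. With all 12 litters 12.7% of all genes passed the threshold in this test. Littermates tended to lie on opposite sides for this gene, with a correlation of -0.43 over 12 litters (Spearman -0.41), lower than in all but 3.77% of genes. IGF2R was also lower in cohort 2 than in cohort 1 by litter means, at -0.33 ± 0.09 (SE, exact permutation p = 0.0108, FDR p = 0.263). It and IRS1 were the 2 of 9 members called in that comparison, where 12.5% of all genes passed the FDR threshold. The cohort difference was -0.41 in CON litters and -0.24 in HF litters, and -0.30 in both male and female litters. Genes most alike included BAZ2A (r = 0.848) and PLXNA4 (r = 0.820), and of the members IGFBP5 was nearest (r = 0.608).

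The summed level of 9 choroid plexus markers correlated with IGF2R at r = 0.579 (Spearman 0.534). Of the 4 markers that passed the filter on low counts, KL (r = 0.588) and TTR (r = 0.573) were above 0.5, while SLC4A5 had 0.219 and KCNJ13 0.0774. That sum had medians of 20.5, 20.6, 43.0 and 21.2 CPM for CON and then HF in AGA, and for CON and then HF in SGA, with highest values of 54.0, 41.9, 160.1 and 25.7 CPM. AQP1 was at 0 in 17 libraries, PRLR in 19 and KL in 2. The median of KL was 0.395 CPM, within the 0.323 to 0.499 CPM that a count of 3 corresponded to. TTR and KCNJ13 had the highest medians, 11.8 and 7.27 CPM, and TTR reached 146.4 CPM. SGA CON replicate 1, with the highest sum, also had the highest IGF2R level, 8.07 CPM. Of 6 astrocyte markers only SLC1A3 had an r above 0.5 with IGF2R (0.669). The part of choroid plexus in IGF2R was not tested.

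INSR, the insulin receptor, gave the largest fitted diet effect of the members, but it depended on the surrogate variables. The gene model lies on chromosome 2 from 72388108 to 72420533 (plus strand, 13 exon intervals). The lowest, median and highest levels were 1.17, 2.05 and 2.79 CPM in AGA CON, 0.640, 1.99 and 4.01 CPM in AGA HF, 1.48, 2.05 and 3.91 CPM in SGA CON, and 1.19, 2.08 and 3.27 CPM in SGA HF. The 4 medians were nearly equal. With surrogate variables edgeR gave -0.48 ± 0.23 (SE) for diet (adjusted p = 0.724), and -0.66 ± 0.30 for SGA HF against SGA CON (adjusted p = 0.709). Without them the diet value was -0.00 ± 0.26, and with cohort in their place 0.00 ± 0.24.

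The litter means of INSR differed between diets by -0.08 ± 0.21 (SE, exact permutation p = 0.690). SGA was higher in 4 of 12 litters, with a mean difference of 0.12 ± 0.26 (exact p = 0.638). The differences between littermates were large in both directions: in litter 3 the AGA piglet had 0.640 CPM and the SGA piglet 2.22 CPM, and in litter 5 they had 4.01 and 1.93 CPM. INSR moved with ANK3 (r = 0.708), CBL (r = 0.694), whose product is a ubiquitin ligase of receptor tyrosine kinases, and CDHR1 (r = 0.659).

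IRS1, the adaptor of both receptors, was the member with the smallest p for size within litters. It lies on chromosome 15 from 142086134 to 142147797 (plus strand, 3 exon intervals). In AGA CON its lowest, median and highest levels were 2.66, 3.91 and 5.83 CPM, and in AGA HF 2.64, 4.15 and 5.44 CPM. In SGA CON they were 4.27, 4.81 and 5.17 CPM, and in SGA HF 4.04, 4.54 and 5.59 CPM. The SGA values lay inside the AGA range, toward its upper side. SGA exceeded AGA in 8 of 12 litters, and the mean log2 difference was 0.25 ± 0.11 (SE, exact sign-flip p = 0.0435, FDR p = 0.377). IRS1 was the 1 member of 9 past the FDR threshold in this test, where 12.7% of all genes passed it. In edgeR the size effect was 0.16 ± 0.14 (SE, adjusted p = 0.882), and with litter as a block it was 0.25 ± 0.14 (adjusted p = 0.673).

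The cohorts gave different values for the size difference of IRS1, though their difference was not past the threshold. In cohort 2 SGA exceeded AGA in 6 of 6 litters, by 0.44 on average, and in cohort 1 in 2 of 6 litters, by 0.06. The difference between the cohorts had an exact permutation p of 0.0736, and 0 of 9 members fell below 0.05 in this test beside 4.34% of all genes. The call was lost without any single one of 9 litters (all but 3, 5 and 6), when the difference stayed between 0.20 and 0.27. Without litter 7, which holds the library with GH1, it was 0.23 (exact p = 0.0771). By litter means IRS1 was lower in cohort 2 by 0.28 on the log2 scale (-0.28 ± 0.09, SE, exact permutation p = 0.0130, FDR p = 0.273). That difference was -0.18 in CON litters and -0.39 in HF litters, and -0.26 in male and -0.34 in female litters.

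**Figure D5:**
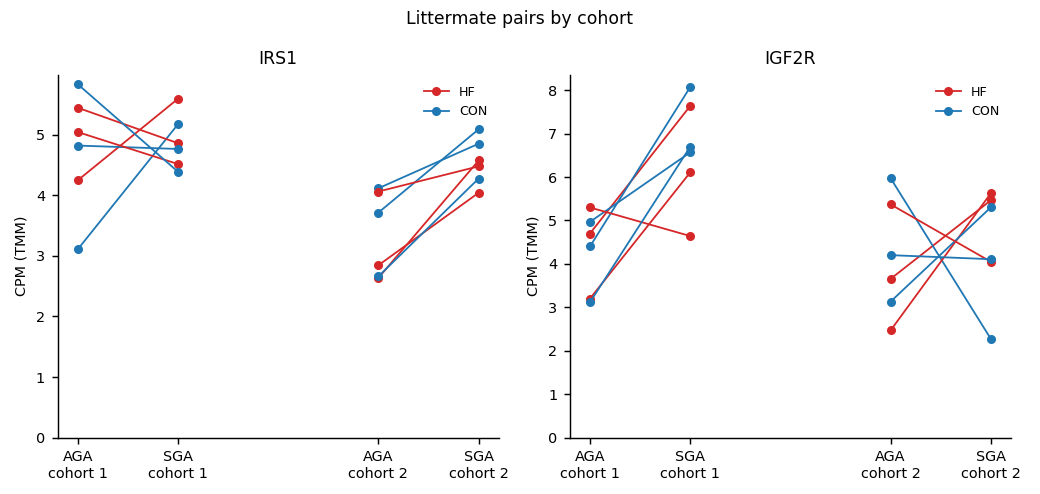
CPM of IRS1 and IGF2R in the AGA and SGA piglet of each litter, joined by lines, by cohort and coloured by diet. IRS1 is higher in the SGA piglet in 6 of 6 litters of cohort 2 and 2 of 6 of cohort 1, while IGF2R is higher in 5 of 6 litters of cohort 1 and 3 of 6 of cohort 2.

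The spread of IRS1 also differed between the sizes. Its CV was 28.6% in AGA CON and 28.0% in AGA HF, but 7.63% in SGA CON and 11.1% in SGA HF. Counting alone gives 17.1% and 16.3% in those SGA groups, so their spread was below counting error. The ratio of the SGA to the AGA standard deviation of log2 CPM was 0.327, smaller than in all but 0.331% of genes, where the median ratio was 0.956. This comparison was made after the values were seen and was not tested. IRS1 correlated at -0.494 with the summed oligodendrocyte markers and at -0.448 with those of microglia. All 6 oligodendrocyte markers had a fitted size effect below 0, from -0.52 for MOG to -0.09 for MAG, and none was called. Their sum ranged from 17720 to 23220 CPM in AGA CON, 13630 to 24960 in AGA HF, 12380 to 19010 in SGA CON and 11460 to 22510 in SGA HF. None of the 6 was at 0 in any library. The part of oligodendrocyte content in the IRS1 values was not tested. The genes most alike were ZNF711, EFCAB6 and BHLHE40, with r of 0.722, 0.721 and 0.704.

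Among the binding proteins, IGFBP2, a binding protein abundant in the developing brain, had its highest levels in the same libraries as IGF2. The gene model lies on an unplaced scaffold from 45713 to 68476 (minus strand, 8 exon intervals). Its lowest, median and highest levels were 17.5, 21.9 and 28.9 CPM in AGA CON, 18.0, 24.9 and 38.5 CPM in AGA HF, 20.1, 23.5 and 33.2 CPM in SGA CON, and 15.99, 23.7 and 38.6 CPM in SGA HF. All groups overlapped. The edgeR values were -0.05 ± 0.13 (SE) for size and 0.21 ± 0.13 for diet, with adjusted p of 0.972 and 0.801. SGA was higher in 7 of 12 litters (0.05 ± 0.16, SE, exact sign-flip p = 0.737).

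The 7 libraries highest in IGF2 were the 7 highest in IGFBP2 and in the meningeal marker sum. Over 24 libraries IGF2 and IGFBP2 correlated at r = 0.690 (Spearman 0.504), the highest among the 36 pairs of members, and over the 20 libraries without the 4 highest in IGF2 at 0.393 (Spearman 0.170). IGFBP2 correlated with the meningeal sum at 0.671 and with the mural sum at 0.627, and without those 4 libraries at 0.460 and 0.668. The Spearman values with the meningeal sum were lower, at 0.494 and, without those libraries, 0.144. Of the 10 meningeal markers 4 had an r above 0.5 with IGFBP2, with a range from 0.320 for FMOD to 0.719 for TNMD. Its most alike genes were MGP (r = 0.815), an inhibitor of calcification made by vascular and connective tissue cells, TP53I11 (r = 0.766), which was also second for IGF2, and OLFML3 (r = 0.737). The part of meningeal or vascular tissue in the IGFBP2 values was not tested. The difference between the cohorts in the size by diet interaction was below an exact permutation p of 0.05 for 2 of 9 members, IGF2 and IGFBP2, beside 4.60% of all genes, and neither passed the FDR threshold.

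IGFBP4, which inhibits IGF action until it is cleaved by the protease PAPPA, was abundant, and its CV was above that of 83.0% of the 2266 genes of like level, whose median CV was 15.3%. It lies on chromosome 12 from 22276126 to 22289602 (minus strand, 4 exon intervals). The lowest, median and highest levels were 16.4, 18.6 and 23.1 CPM in AGA CON, 13.0, 16.4 and 30.4 CPM in AGA HF, 18.1, 20.1 and 24.8 CPM in SGA CON, and 12.8, 23.0 and 26.4 CPM in SGA HF. The CVs were 34.2% and 24.2% in the HF groups against 13.2% and 11.4% in the CON groups. In each HF group 1 library lay farthest from the rest, though neither was among the samples flagged below. AGA HF replicate 2 had 30.4 CPM, where the others had 13.0 to 20.4 CPM. SGA HF replicate 3 had 12.8 CPM, where the others had 19.5 to 26.4 CPM. The difference in spread was seen in the values and was not tested. SGA exceeded AGA in 7 of 12 litters by 0.18 ± 0.12 (SE, exact sign-flip p = 0.156), and edgeR gave 0.11 ± 0.12 for size (adjusted p = 0.913). Without litter 5 the edgeR size value was 0.29 ± 0.11 (adjusted p = 0.365), which is past the threshold, in a fit that called 1259 genes instead of 78. The correlation of IGFBP4 with IGF2 was -0.168, and its most alike genes were AMHR2, LINGO3 and SNX27, with r of 0.798, 0.777 and 0.755.

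IGFBP5, a binding protein that attaches to extracellular matrix, was read at 0 to 27 counts. It lies on chromosome 15 from 131682267 to 131684608 (minus strand), as 3 exon intervals of 634 bases. Its lowest, median and highest levels were 0.949, 1.84 and 2.86 CPM in AGA CON, 0, 1.47 and 2.46 CPM in AGA HF, 1.15, 1.76 and 2.92 CPM in SGA CON, and 1.17, 1.98 and 3.41 CPM in SGA HF. The library with no IGFBP5 read was AGA HF replicate 5, and a count of 0 there allows up to 0.482 CPM. SGA was higher in 7 of 12 litters, with a log2 difference of 0.44 ± 0.28 (SE, exact sign-flip p = 0.124). Without litter 9, which holds that library, it was 0.21 ± 0.17 (exact p = 0.247). The edgeR size value was 0.30 ± 0.27 (SE, adjusted p = 0.888). ITSN1, SIPA1L2 and MYO10 were most alike, with r of 0.774, 0.773 and 0.770.

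Sex and the diet dependence of the size difference gave no member past an unadjusted exact p of 0.05. Between male and female litters 5.08% of all genes were below that p and 0 of 9 members, with IGFBP4 nearest at -0.20 ± 0.12 (SE, male minus female, exact permutation p = 0.139). For the size difference between diets the share was 4.36% and 0 of 9 members. For diet between litters it was 4.10% and 0 of 9, with IGF1R at the smallest exact permutation p of 0.346.

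The other genes of the pathway were described from a list of 49, of which 37 were tested. edgeR called 0 of 37 in size, diet and interaction. At an unadjusted p below 0.05 there were 5 for size (2 higher and 3 lower in SGA), 2 for diet and 1 for the interaction, beside the shares of all genes given above. The smallest p for size belonged to PIK3R2, a regulatory subunit of phosphatidylinositol 3-kinase (0.13 ± 0.05, SE), and YWHAB, a 14-3-3 protein (0.08 ± 0.04), on the higher side. On the lower side they belonged to IGFBP6, which prefers IGF2 over IGF1 (-0.24 ± 0.11), and GAB1, a docking protein of receptor kinases (-0.16 ± 0.07). For diet, the adaptor GRB14 had 0.20 ± 0.09 and IGFBP6 0.16 ± 0.11, and SOCS2, an inhibitor of growth hormone signalling, had -0.20 ± 0.08 and PIK3CA, a catalytic subunit of phosphatidylinositol 3-kinase, -0.33 ± 0.16. For the interaction they were FOXO1 (0.39 ± 0.20), a transcription factor held back by AKT, and IGFALS (0.44 ± 0.23), a partner of circulating IGFs, and on the lower side IGFBP6 (-0.44 ± 0.21). The adjusted p of these genes ranged from 0.620 for PIK3R2 to 0.838 for IGFBP6 in diet.

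The exact test within litters placed 9 of the 37 past the FDR threshold of 0.4, 5 higher in SGA and 4 lower, beside 12.7% of all genes. GAB1 had the smallest p, at -0.30 ± 0.06 (SE, exact sign-flip p = 0.000977, FDR p = 0.116), with SGA higher in 1 of 12 litters. PIK3R2 was higher in SGA in 10 of 12 litters (0.12 ± 0.04, SE, exact test, FDR p = 0.279) and YWHAB in 10 of 12 (0.16 ± 0.07, FDR p = 0.384). GAB1 also differed between the cohorts by 0.27 ± 0.11 (SE, exact permutation test, FDR p = 0.342). Of the receptors' downstream branch, PDPK1 was among the higher genes and FOXO4 and PTPN1, a phosphatase of the insulin receptor, among the lower. SH2B1 was also among the higher genes, and PAPPA was the other lower one. Naming these 5 followed from their values.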

How the data were processed

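The authors trimmed the single-end reads with Trimmomatic 0.33, aligned them to Sscrofa10.2 with STAR 2.5.2a and counted them on exons per Entrez gene, by strand, with featureCounts of Subread 1.5.0. They deposited these raw counts without normalization. One entry without an identifier (0.613 to 1.62% of each library) was left out. Symbols came from an Sscrofa11.1 table matched by identifier (23036 of 38882 genes). No sequence is printed.

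Counts were scaled by TMM and kept at 1 CPM or more in at least 3 libraries (16326 genes). edgeR 4.0.16 quasi-likelihood tests in R 4.3.3 used the 4 groups, sex and 5 surrogate variables (sva 3.50.0), with Benjamini-Hochberg FDR over 7 contrasts together. Standard errors were derived from the F statistic and 95% intervals from the normal quantile. Two-sided exact tests used 12 littermate differences (sign-flips, smallest p 0.000488) or 6 against 6 litters (smallest p 0.00216). Their FDR was taken over all genes for each comparison alone. In the sign-flip test 2075 genes passed an FDR p of 0.4, and 2055 had an unadjusted p below 0.05. DESeq2 1.42.0 and limma 3.58.1 were alternatives. Littermates were paired by the pair number of the samples, and each pair was taken as 1 litter. Their deviations from the group means correlated at 0.0144 to 0.329, above 0.1 in 9 of 12 litters. The median over the other combinations of an SGA and an AGA piglet was -0.0266. No libraries of the same group were duplicates: counts of the 60 pairs within groups differed by at least 5.45 times sampling noise (chi-square per gene). Libraries of different groups were not compared in this way. The members and gene lists were chosen with earlier results of these data known. The named genes were the members, the pathway genes with the 2 smallest p in each direction for size, diet and interaction, and the 3 genes most correlated with each member at a mean of at least 5 CPM, of which a few are not reported here. The scripts were tested on simulated data. Floors cover counting error only, whereas the intervals include the variation between piglets.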

Additional observations from a re-analysis of the deposited data

Results flagged for a closer look

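IGF2 in SGA CON replicate 6 was 52.4 CPM, where the other 5 libraries of the group had 8.43 to 21.1 CPM, a gap large against the group's range. The same library was among the highest in the meningeal marker sum and IGFBP2. INSR in SGA CON replicate 1 was 3.91 CPM, from 31 reads, where the other 5 libraries had 1.48 to 2.17 CPM. These were 2 samples flagged in 36 groups of 6 libraries, and chance flags about 1 in 20 groups.

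The size by diet interaction of IGF2 and of IGFBP2 differed between the cohorts, a comparison added after the data were seen. For IGF2 the HF minus CON difference in the SGA minus AGA log2 value was 1.78 in cohort 1 and -1.70 in cohort 2, a change of -3.48 (exact permutation of diets within cohorts, p = 0.015, FDR p = 0.972 over all genes). For IGFBP2 the values were 0.63 and -1.05, a change of -1.68 (p = 0.005, the smallest this permutation can give, FDR p = 0.972). At an unadjusted p below 0.05 stood 4.60% of all genes, and neither member passed the correction. Of the 7 libraries highest in IGF2, SGA HF replicates 1 and 2 and AGA CON replicate 2 are in cohort 1, and AGA HF replicates 4 and 6 and SGA CON replicates 4 and 6 in cohort 2. These are also the 7 highest of 24 in the meningeal marker sum, whose part in the difference was not tested.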

How the results depend on the processing

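Members called in the fits over groups stayed at 0 for size, diet and interaction under all alternatives run except without litter 5. Leaving out litters gave 0 to 1 members for size, 0 to 2 for diet and 0 to 1 in the exact test within litters, where each cohort alone gave 0. The count over all genes was far less stable. With litter as a replicate block 420 genes were called for size and 45 for the interaction. DESeq2 gave 210, 88 and 17 for size, diet and interaction. limma voom gave 10 for diet and 1 for the interaction, and RLE factors 15 for the interaction. Without the filter the counts were 124 for size and 45 for diet, and without surrogate variables 13, 0 and 0. Cohort in their place gave 16 for diet. FDR within each contrast gave 1200, 6 and 0. Each cohort alone gave 0 for size, 1 for diet and 0 for the interaction. Leaving out single litters gave 14 to 1259 for size, 5 to 757 for diet and 3 to 333 for the interaction. The cause was not tested. Of 711 member fold changes under alternatives 65 had the opposite sign and 3 became called, all without litter 5. Of 270 litter differences 36 had the opposite sign, 11 lost the call, all of IRS1, and 1 gained it. Differences of opposite sign were within 1 standard error of 0 in at least 1 setting, and none was called. At the depth of these libraries IGF1 and IGF1R were read in 17 counts or fewer, and the standard errors of their size effects were 0.34 and 0.24 on the log2 scale.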
